A study of Mus musculus with 3 samples.

Results

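A set of 63 wells with high Crabp1, Ebf2 and Ebf3 counts was described on a plate of single cells from uncultured mouse kidneys of embryonic stage E11.5. They were 63 of the 337 kept wells of that plate (18.7%, exact binomial 95% interval 14.7% to 23.3%) and of 837 kept wells in the series. A well was kept when it was not labelled as a control or as holding more than 1 cell, had at least 1000 counts of nuclear-encoded mouse genes, and had at most 30% mitochondrial counts. A kept well was a member when Crabp1, Ebf2 and Ebf3 summed to at least 8 counts per 10000, Six2, Eya1 and Uncx summed to under 6 per 10000, and Epcam, Cdh16 and Cldn6 summed to under 3 counts. The measured values of these 9 genes thus chose the wells, and their levels are given as a description.

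The series holds 3 plates of 384 wells: E11.5 kidney cells sorted without culture, and cells of explanted E12.5 and E11.5 kidneys grown ex vivo. All mice were C57BL/6 and carried LGR6-EGFP-IRES-CreERT2, an allele named for Lgr6 that joins a green fluorescent protein to a tamoxifen-inducible Cre recombinase. The cultured plates also carried ROSA26-tdTomato, a red reporter that Cre can switch on. The kidneys were dissociated with collagenase, sorted on a BD FACSAria II, and sequenced by SORT-seq, a plate method that counts transcripts by unique molecular identifier. The E12.5 explants were cultured for 5 days, and the E11.5 explants for 7 days by the sample title and 5 by the stage label. The sort gate, the number of embryos on a plate and whether they were pooled are not given in the sources used here. Each condition is 1 plate, so no comparison below has replicates and no p-value is given; all intervals cover counting error only.

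In the developing kidney, nephron progenitors that express Six2 cap the tips of the ureteric bud, and stromal progenitors that express Foxd1 surround them. The stromal progenitors give rise to much of the interstitium, including fibroblasts, mural cells and mesangium. They exchange signals with the cap and the bud, and retinoic acid made in the stroma is one of those signals.

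The members held 384534 counts, with a median of 5143 per well (range 1206 to 32058) and a median of 2780 genes. The 274 other kept wells had a median of 7714 counts, and their deepest well (364620 counts) gave 9.66% of their counts. The others comprised 112 nephron progenitor wells (Six2, Eya1 and Uncx at or above their threshold, with the members' markers below theirs) and 92 remaining mesenchyme wells, which reached neither threshold nor that of any set below. A further 23 were epithelial, 17 endothelial, 15 leukocyte, 8 high in both marker sets, 4 neuronal and 3 neural crest wells. Endothelial, leukocyte, neuronal and neural crest wells were set at 6 per 10000 for short sums of markers, such as Pecam1 and Cdh5, Lyz2 and C1qa, Tubb3 and Stmn2, and Sox10. These classes were set by thresholds on counts and are ranges, not cell types read from an annotation. The 15 labelled control wells had a median of 632 counts and together 2 counts of Crabp1, 2 of Ebf3, 3 of Foxd1 and none of Ebf2 or Ntn1.

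Crabp1 carried most of the marker sum. It encodes cellular retinoic acid binding protein 1 and was found in 62 of 63 wells, at a lowest of 0, a median of 12.49 and a highest of 96.2 counts per 10000. Ebf3, a transcription factor of the early B-cell factor family, was found in 54 wells, at 0, 4.82 and 33.5. Its relative Ebf2 was found in 26, at 0, 0 and 14.3. Crabp1 alone reached the threshold in 48 wells and Ebf3 alone in 20, while 12 wells reached it only by the sum. All 3 were found in 25 wells. In summed counts per 1000000 (CPM), Crabp1 was at 2168, Ebf3 at 993 and Ebf2 at 161 in the members, against 263, 101 and 18.8 in the other kept wells. The 3 members nearest the threshold had 8.08, 8.24 and 8.72 per 10000, resting on 3, 4 and 4 counts, and the nearest wells outside had 7.50, 7.50 and 7.79. On the side of the progenitor genes, the highest members had 4.61, 5.29 and 5.83 per 10000, and the nearest wells with high Crabp1, Ebf2 and Ebf3 that were left out had 6.41, 8.10 and 9.22.

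**Figure D1:**
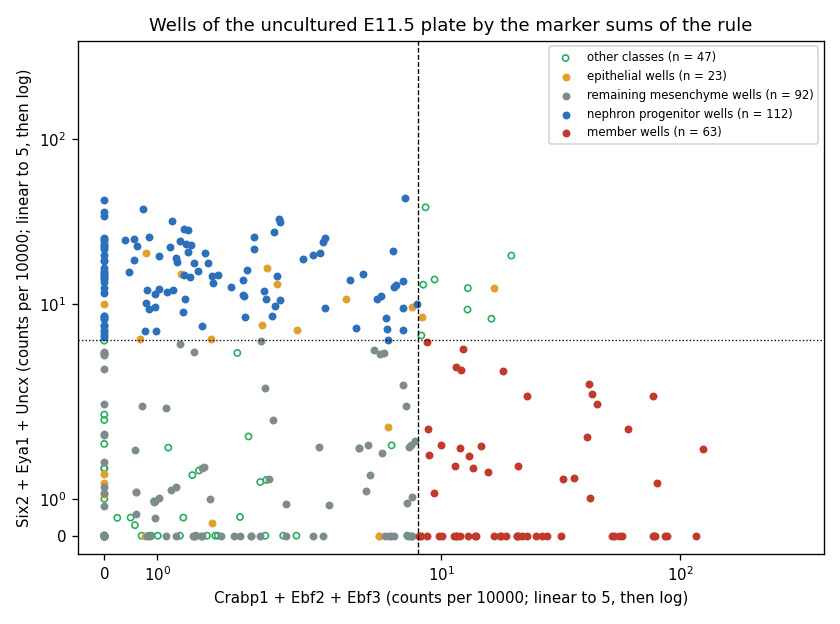
Each point is 1 kept well of the uncultured E11.5 plate. The horizontal axis gives Crabp1, Ebf2 and Ebf3 summed and the vertical axis Six2, Eya1 and Uncx summed, both in counts per 10000 on an axis that is linear to 5 and then logarithmic; lines mark the thresholds of 8 and 6. The 63 members lie to the right of the first threshold and below the second by the rule, with wells on both sides of each line and no gap.

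The upstream sequence of 3 markers is shown because the members were named by these genes: 250 bases before the annotated start, from RefSeq (GRCm38.p6), 5′ to 3′ on the gene's strand. Capitals mark the GC box (GGGCGG, the core bound by Sp1-type factors) and the CCAAT box, each searched on both strands.
Crabp1, chr9:54764498-54764747, plus strand: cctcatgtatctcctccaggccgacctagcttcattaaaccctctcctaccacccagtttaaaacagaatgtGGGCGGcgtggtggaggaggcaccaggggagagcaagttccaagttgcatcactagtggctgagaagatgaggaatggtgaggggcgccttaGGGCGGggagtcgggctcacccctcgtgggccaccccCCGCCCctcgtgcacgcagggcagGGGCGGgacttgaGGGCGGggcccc
Ebf3, chr7:137314446-137314695, minus strand: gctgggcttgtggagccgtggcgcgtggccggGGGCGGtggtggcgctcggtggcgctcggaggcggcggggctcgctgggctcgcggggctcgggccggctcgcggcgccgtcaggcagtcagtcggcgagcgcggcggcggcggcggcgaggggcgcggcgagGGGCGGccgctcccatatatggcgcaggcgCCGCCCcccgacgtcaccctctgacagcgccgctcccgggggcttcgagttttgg
Foxd1, chr13:98353995-98354244, plus strand: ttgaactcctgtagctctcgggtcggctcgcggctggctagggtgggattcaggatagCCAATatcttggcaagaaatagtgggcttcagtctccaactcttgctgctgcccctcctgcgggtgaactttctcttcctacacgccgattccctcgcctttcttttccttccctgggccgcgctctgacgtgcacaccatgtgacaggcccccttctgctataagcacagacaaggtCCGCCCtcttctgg

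The Crabp1 window held 5 GC boxes, a count that 1.93% of 32851 promoters of the same length reach or pass. Ebf3 held 3 GC boxes in a window of 80.0% G and C, and Foxd1 held 1 GC box and 1 CCAAT box at 57.2%, beside a median of 52.4% over all promoters. At least 1 GC box was present in 32.7% of all promoters and a CCAAT box in 33.8%. Neither the TATA box TATAAA (12.4% of promoters) nor the early B-cell factor palindrome, TCCC and GGGA around any 2 bases (0.779%), occurred in these 3 windows. These are matches of letters, not measured binding.

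Of the markers that the rule did not use, Foxd1 was found in most members and Ntn1 in fewer, and both were higher by summed counts than in the neighbouring classes. Foxd1, the forkhead factor that defines the renal stromal progenitor, was found in 54 of 63 members, at a lowest of 0, a median of 7.63 and a highest of 27.7 counts per 10000. The same values were 0, 0.80 and 8.41 in the nephron progenitor wells and 0, 2.27 and 19.1 in the remaining mesenchyme wells. The ranges overlapped at 0 in each class, but the median member lay near the top of the nephron progenitor range. In summed counts Foxd1 was at 944 CPM (849 to 1046) in members, 168 in nephron progenitor wells and 361 in remaining mesenchyme wells, a ratio of 5.63 (4.74 to 6.72) and of 2.61 (2.22 to 3.08).

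Ntn1, which encodes the secreted guidance ligand netrin 1, was found in 39 members, at 0, 1.85 and 9.96 counts per 10000. Its highest well was at 3.01 in the nephron progenitor class and 4.87 in the remaining mesenchyme. It stood at 255 CPM in members, 34.8 and 29.3 in those classes, 7.33-fold (5.07 to 10.7) and 8.71-fold (5.39 to 14.7) higher. Both genes were found in 35 members and neither in 5, and all 5 markers were found in 16.

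Shares of wells with a count depend on depth, which was lower in members. After thinning each well to 1000 counts, Foxd1 was found in 55.6% of members, in 14 of the 112 nephron progenitor wells and in 23.9% of remaining mesenchyme wells, against 85.7%, 56.2% and 67.4% before thinning. Ntn1 was found in 25.4%, 0.893% and 2.17% after thinning, and 61.9%, 17% and 15.2% before. For comparison, leukocyte wells (median 6590 counts) had Foxd1 in 26.7% and Ntn1 in 6.67% of wells. Endothelial wells (median 12048) had them in 11.8% and 5.88%. After thinning, each gene was found in 0 of 15 leukocyte and 0 of 17 endothelial wells. For each gene the share of members was above the share in both of these small classes. Crabp1 itself was found in 40% of leukocyte and 41.2% of endothelial wells, and after thinning in 0 of 15 and in 5.88%. Wells that passed the members' rule were counted as members even when they reached the leukocyte sum. The Crabp1 shares of these classes were therefore limited by the rule and are not an independent background.

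Against the label of stromal progenitor, endothelial and leukocyte markers were lower in members than in the other wells, while several other lists were not. The 12 endothelial markers summed to 83.2 CPM in members (0 to 7.90 per 10000 over wells) and 623 in the other wells, with 6 of 12 at 0, Cdh5 among them. The 12 leukocyte markers summed to 245 CPM (0 to 155 per 10000) and 660, and 1 well carried most of them. The 12 neuronal markers summed to 294 CPM (0 to 16.7 per 10000) and 250.2, with 5 of 12 at 0, Tubb3 included; Stmn2, a tubulin-binding protein of growing neurons, gave 214 CPM. The 10 neural crest markers summed to 117 and 134 CPM. These are longer lists than the short sums that set the classes. Of those sums, the neuronal one reached 6 per 10000 in 9 members, the leukocyte one in 3, and the endothelial and neural crest ones in none; 52 members reached none of them. The 10 cartilage and sclerotome markers summed to 591 CPM in members and 316 in the other wells, with 2 at 0. Of the 5 compared with nephron progenitor wells, 4 were higher and none lower, beside 9.05% and 8.09% of all features. The list summed to 641 CPM in remaining mesenchyme wells, so its level was not particular to members. Of 6 genes compared with that class, 2 were higher in members and none lower, with a median log2 ratio of −0.46. In the remaining mesenchyme the leukocyte list reached 208 per 10000 in its highest well and summed to 244 CPM. Other lists went both ways. The coelomic, gonad and adrenal list summed to 1033 CPM in members, 695 in the other wells and 976 in remaining mesenchyme wells. Smooth muscle and mural genes were at 437, 400 and 705 CPM, and skeletal muscle genes at 556, 291 and 297. Podocyte (283 and 293 CPM), ureteric (286 and 315) and erythroid lists (83.2 and 1248) were lower in members than in the other wells. Six2, Eya1 or Uncx was still found in 28 members. Single members departed further from the label: 1 was high in skeletal muscle genes, the deepest in tendon and neuropeptide genes, 1 in the leukocyte genes Lyz2 (26.1 counts) and C1qc (4 counts), and 5 held Pax1 or Pax9.

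By summed counts the members lay nearer the nephron progenitor wells in Wt1 and Meox1, and within 2-fold of both neighbouring classes in Aldh1a2. Wt1, a zinc finger factor of the early kidney, was found in 54 members at 0, 8.29 and 27.7 counts per 10000, against 0, 7.94 and 37.3 in nephron progenitor and 0, 2.72 and 23.5 in remaining mesenchyme wells. The medians of members and nephron progenitor wells were close, with 845 and 882 CPM by sums, and the remaining mesenchyme stood at 443 CPM. Meox1, a homeobox factor of early mesenchyme, was at 135, 94.6 and 15.3 CPM in the same classes, and was 8.82-fold (4.55 to 18.7) higher in members than in remaining mesenchyme. Aldh1a2, the main enzyme that makes retinoic acid in the embryo, was at 0, 7.31 and 41.5 per 10000 in members, 0, 3.87 and 26.4 in nephron progenitor and 0, 5.43 and 49.7 in remaining mesenchyme wells. Its sums were 997, 591 and 917 CPM, all within 2-fold.

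**Figure D2:**
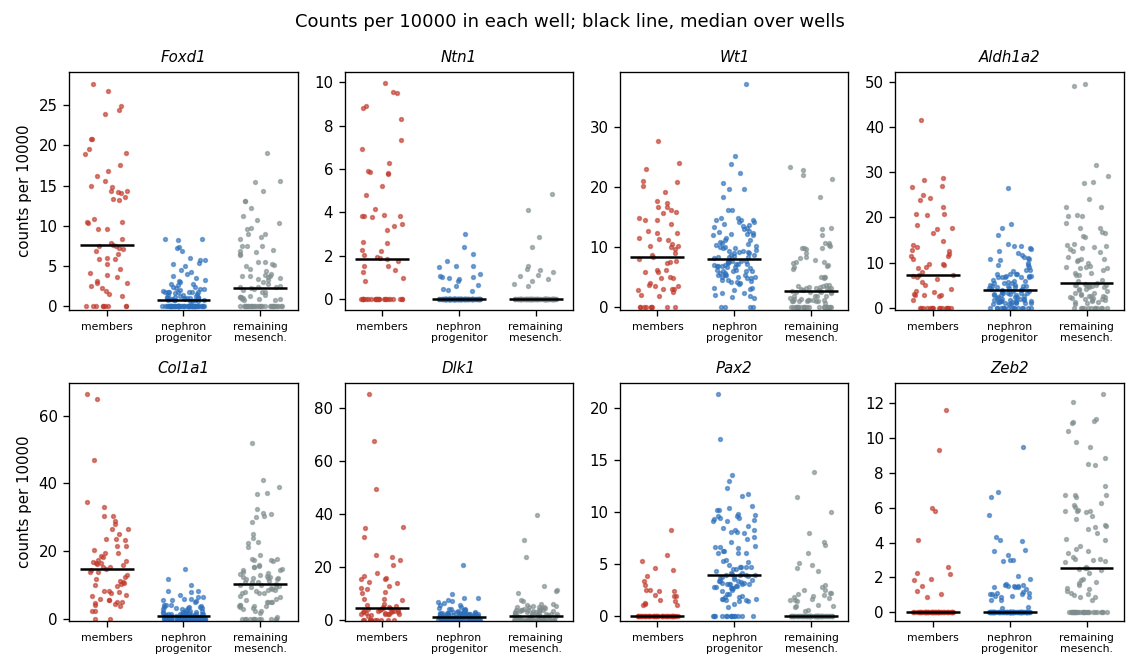
Each point is 1 well and gives the gene's counts per 10000 on a linear axis, for the 63 members, 112 nephron progenitor and 92 remaining mesenchyme wells of the uncultured plate; black lines are medians over wells. Foxd1 and Ntn1 are highest in members, Wt1 medians are 8.29 and 7.94 in members and nephron progenitors, Pax2 is highest in nephron progenitors and Zeb2 in the remaining mesenchyme, and every pair of classes overlaps.

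Compared with the nephron progenitor wells, the members were higher in matrix, fibroblast and imprinted growth genes and lower in nephron genes. Of 9327 features with at least 20 counts, 844 (9.05%) were at least 2-fold higher in members and 755 (8.09%) at least 2-fold lower, with a median log2 ratio of −0.05. The wells were chosen by values of these same libraries, so the counts describe the classes and are not a test.

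Of 46 matrix genes with enough counts, 28 were higher and 3 lower, with a median log2 ratio of 1.53. Col1a1, a chain of type I collagen, was at 0, 14.7 and 66.2 counts per 10000 in members and 0, 0.79 and 14.7 in nephron progenitor wells, so that the median member lay at the upper end of that class. It was at 1731 and 216 CPM, 8.01-fold higher (6.95 to 9.28). Col3a1, the chain of type III collagen, was found in every member, from 3.80 through 22.2 to 76.5 per 10000, and stood at 2506 and 305 CPM, 8.23-fold higher (7.29 to 9.29). Col1a2 was 9.59-fold higher, and Col5a2 10.3-fold. Col6a1 and Col6a3, chains of the microfibrillar type VI collagen, were 13.3-fold and 19-fold higher, and the matrix protein Smoc2 was at 138 and 7.28 CPM. The matrix genes that were lower were Col4a1 and Col4a2, the chains of basement membrane collagen, by 2.50-fold and 3.09-fold, and Vcan, a large proteoglycan, by 2.76-fold.

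Genes of later renal stroma and fibroblasts followed. All 9 that could be compared were higher, with a median log2 ratio of 2.52. Dlk1, a Notch-like transmembrane protein of immature mesenchyme and an imprinted gene, was at 0, 4.36 and 85.2 counts per 10000 in members against 0, 1.03 and 20.7, with 1164 and 142 CPM (8.22-fold, 6.90 to 9.86). Pdgfra, the receptor for platelet-derived growth factor on fibroblasts, was at 390.3 and 67.9 CPM. Cxcl12, a chemokine of stromal cells, was at 0, 4.61 and 29.2 per 10000 against 0, 0 and 6.90, with 640.0 and 121 CPM (5.31-fold, 4.31 to 6.55). Postn, the matrix protein periostin, was at 133 and 10.5 CPM. Among growth factors, Igf1 was at 119.6 and 8.09 CPM, with a log2 ratio of 3.89 that was 2.42 when the mean of the per-well CPM was used in place of the sum. Tgfb2, a transforming growth factor, was at 0, 1.94 and 14.9 per 10000 against 0, 0 and 8.08, and stood 10.1-fold higher (7.11 to 14.6) by sums.

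Among 34 stromal transcription factors other than the rule genes, 15 were higher and 3 lower, with a median log2 ratio of 0.92. Twist1 and Prrx1, factors of embryonic mesenchyme, were 4.67-fold and 6.88-fold higher. Ebf1, the third member of the Ebf family described here, was at 174 and 29.1 CPM, 5.98-fold higher, though it was not part of the rule. Osr1, an early factor of intermediate mesoderm, was at 36.4 and 106 CPM, 2.91-fold lower.

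Of 12 genes outside the rule that bind, make, break down or sense retinoic acid, 5 were higher and none lower: Cyp26b1, Dhrs3 and the receptors Rarb, Rarg and Rxra. Cyp26b1, which degrades retinoic acid, was at 78.0 and 6.47 CPM (12.1-fold, 5.40 to 30.4), Dhrs3, which reduces retinaldehyde, at 169 and 46.9 CPM, and Rarg at 44.2 and 8.09 CPM.

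Guidance and Wnt genes moved in both directions. Of 25 guidance genes 8 were higher and 2 lower. Robo2, the Slit receptor that acts in nephrogenic mesenchyme, was at 85.8 and 443 CPM, 5.16-fold lower (3.63 to 7.58), while the ephrin Efna5 was 3.45-fold and the semaphorin Sema3a 4.02-fold higher. Of 23 Wnt genes 6 were higher and 5 lower: the ligand Wnt5a was 7.32-fold and its receptor Ror1 8.66-fold higher, and Sfrp1, a secreted Wnt antagonist, stood at 379.7 and 90.6 CPM. Wnt4, a signal of nephron induction, was 4.51-fold lower and Rspo1 12.8-fold lower. Of 27 signalling ligands and receptors of stroma and progenitors, 9 were higher and 9 lower, with a median log2 ratio of 0.09. Among the lower were Gdnf at 18.2 and 67.9 CPM, Fgf10 at 7.80 and 68.7, and Bmp7 at 20.8 and 134. Of 17 hedgehog and Notch genes 5 were higher, among them the hedgehog coreceptor Boc (5.24-fold), and 4 lower, among them the Notch targets Hey1 (7.77-fold) and Heyl (9.64-fold).

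Imprinted and fetal growth genes were higher in 7 of 20 and lower in 1, Hmga1, by 3.11-fold. Igf2, the fetal growth factor, was found in every member, from 20.8 through 53.0 to 144 counts per 10000, against 0, 24.1 and 55.5 in nephron progenitor wells. The median member thus lay near the highest nephron progenitor well, and the sums were 6393 and 2705 CPM (2.36-fold, 2.24 to 2.49). Plagl1 and Cdkn1c, a zinc finger factor and a cell cycle inhibitor, were 5.15-fold and 2.15-fold higher. Meg3, the noncoding transcript beside Dlk1, was 7.59-fold higher, but 1 well held 33.8% of its counts in members.

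Nephron genes outside the rule were lower, in 8 of 10 progenitor genes and 7 of 8 early nephron genes. Pax2, the paired box factor of nephrogenic mesenchyme, was at 0, 0 and 8.29 counts per 10000 in members against 0, 3.93 and 21.3, with 75.4 and 474 CPM (6.29-fold lower, 4.33 to 9.47). Pax8, Sall1 and Cited1 were 5.35-fold, 3.74-fold and 6.22-fold lower, and the integrin chain Itga8, the receptor for nephronectin, 11.7-fold. Spock2, a proteoglycan, was at 36.4 and 369 CPM, the filament protein Des at 28.6 and 217, and Wfdc2 and Ccdc88c were also among the 6 leading lower genes. Since Six2, Eya1 and Uncx separated these classes by rule, genes that accompany them are a description of the split. Of 29 Hox genes 12 were lower and 2 higher. Hoxb2 was 3.64-fold and Hoxd11 2.01-fold lower, and Hoxa2, at 80.6 and 20.2 CPM, was higher with a log2 ratio of 2.0 that was 1.34 without the deepest member well.

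Of 14 immediate early and heat shock genes 8 were higher and none lower, with Jun at 372 and 125 CPM, Fos at 172 and 54.2, and Fosb at 104 and 23.5. Immediate early genes are known to respond to tissue dissociation, which both classes shared on this plate. The part of dissociation in the result was not tested. Replication genes were lower in 5 of 25 and higher in none, with Pcna at 93.6 and 221 CPM, and mitosis genes were lower in 1 of 25. Mki67 and Top2a, marks of dividing cells, were both found in 29 of the 63 members.

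Smaller shares of genes passed 2-fold between the members and the remaining mesenchyme wells. Of 8404 features, 334 (3.97%) were at least 2-fold higher and 426 (5.07%) at least 2-fold lower, with a median log2 ratio of −0.04. Of 45 matrix genes 7 were higher and 4 lower, and of 34 stromal transcription factors 4 were higher and 6 lower. Genes of later stroma were higher in 3 and lower in 2 of 11, with a median log2 ratio of 0.15 that was −0.22 without the deepest member well. Col1a1 at 1731 and 1142 CPM and Pdgfra at 390.3 and 342 were within 2-fold.

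Genes higher in members than in the remaining mesenchyme included ligands and matrix proteins. Igf1 was at 119.6 and 8.36 CPM, Smoc2, a calcium-binding matrix protein, at 138 and 19.5, and Col6a3 at 200.2 and 62.7. Stmn2 (6.38-fold) and Mpped2 were among the 6 leading genes, and the log2 ratio of Mpped2, 2.84, was 1.22 without the deepest member well. Stmn2 is part of the neuronal sum that was limited in remaining mesenchyme wells but not in members, so the classes themselves favoured a higher ratio. Its log2 ratio was 0.92, under 2-fold, without member wells reaching another cell type's markers. Tgfb2 was 4.34-fold (3.17 to 6.01) and Dlk1 3.09-fold (2.66 to 3.61) higher. Cyp26b1 was 4.0-fold (2.06 to 8.16) and Crabp2, the other cellular retinoic acid binding protein, 2.25-fold (1.76 to 2.88) higher, so that 2 of 12 retinoid genes differed. Igf2, at 6393 and 3225 CPM, was just under 2-fold. Of 19 imprinted genes 4 were higher, with Plagl1 at 622 and 283 CPM and the zinc finger gene Zim1 at 203 and 78.1. Meg3 passed 2-fold by sums as well. Its log2 ratio was 0.63 without the deepest member well and 0.87 by the mean of the per-well CPM.

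Genes lower in members than in the remaining mesenchyme included transcription factors and a pericyte gene. Zeb2, a zinc finger repressor, was at 0, 0 and 11.6 counts per 10000 in members and 0, 2.54 and 12.53 in remaining mesenchyme, with 70.2 and 368 CPM (5.24-fold lower, 3.52 to 8.10). Gata2 was at 0, 0 and 4.67 per 10000 against 0, 0 and 20.7, with 26.0 and 275 CPM, so the median well of either class had none. Tcf21, a factor of renal and other visceral stroma, was at 26.0 and 121 CPM, Alx1 at 10.4 and 85, and Tbx3 at 13.0 and 55.8. Car3, a carbonic anhydrase, was at 10.4 and 110 CPM, and Pf4, a platelet and macrophage gene, was also lower with 77.9% of its remaining mesenchyme counts in 1 well. The predicted gene Gm10800 was 4.27-fold lower, with a log2 ratio of −1.45 in wells with at least 3000 counts and −2.82 by the mean of the per-well CPM. Rgs5, a pericyte gene, was 5.65-fold lower, and Sfrp2, a secreted Wnt modulator, was at 425 and 1217 CPM. With the marker threshold of 12 per 10000, the log2 ratios of Zeb2 and Rgs5 moved to −3.495 and −3.27. Heyl and Itga8 were lower here too, 5.72-fold and 7.15-fold. Hox genes went the other way from the comparison with nephron progenitors, with 4 of 25 higher and 1 lower. The medians of replication and mitosis genes were −0.09 and −0.59 on the log2 scale.

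**Figure D3:**
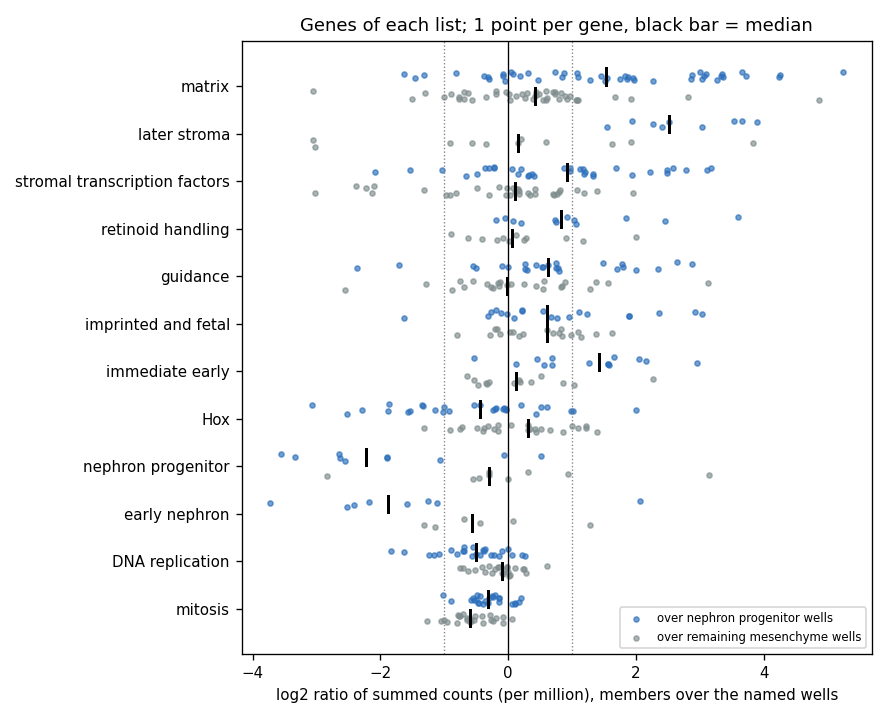
Each point is 1 gene of the named list, outside the rule genes, placed by the log2 ratio of summed counts per 1000000 in members over nephron progenitor wells or over remaining mesenchyme wells; black bars are medians and dotted lines mark 2-fold. Matrix genes have a median of 1.53 over nephron progenitors and 0.42 over the remaining mesenchyme, nephron progenitor genes −2.23 and −0.29, and mitosis genes −0.31 and −0.59.

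Against all 274 other kept wells together, 864 of 11789 features (7.33%) were at least 2-fold higher and 1392 (11.8%) at least 2-fold lower, a contrast that the rule itself made. Ranked by the near limit of the ratio's interval, the 20 leading genes were mainly of matrix and fibroblasts. Col6a6, a further type VI collagen chain, was at 83.2 and 5.30 CPM (15.7-fold, 8.71 to 29.0), and Fap, the fibroblast activation protease, at 91.0 and 6.89 CPM. Also among them were Postn, Col8a2, Col6a3, Egfl6, Smoc2, Bnc2, Adamtsl1, Col1a2 and Col6a1 (3.84-fold to 9.12-fold), the signalling genes Dlk1, Tgfb2 and Ntn1, Daam2 and Amot, which act downstream of Wnt and in Hippo signalling, and Meg3. Among these, the log2 ratio of Ntn1 was 2.29 over all wells and 3.56 without the deep wells over 3 times the plate median, that of Amot 2.25 and 1.40 in Foxd1-high members alone, and that of Daam2 2.59 and 1.94 without the deepest member well. The other 3 were Mpped2, Igfbp5 and Stmn2. Mpped2 was 9.29-fold higher with 70.1% of its counts in the deepest member well, and its log2 ratio of 3.22 was 1.60 without it. Igfbp5, a binding protein of insulin-like growth factors, was at 1412 and 259 CPM, with 31.8% of its counts in 1 well, and its log2 ratio of 2.45 was 2.02 without the deepest member well. Stmn2, which is itself 1 of the neuronal markers, was at 214 and 44.0 CPM (4.85-fold). Its log2 ratio was only 0.52 without member wells reaching another cell type's markers. Foxd1 was at 944 and 277 CPM, 3.41-fold higher (3.02 to 3.84), with a log2 ratio of 1.77 that was 2.44 without the deep wells. The 12 leading lower genes held the kidney factors Pax2 and Pax8, Dach1, the ligand Bmp2, the Notch targets Hey1 and Heyl, and Crip2, Spock2, Wfdc2, Ccdc88c, Itga8 and Des, between 4.23-fold and 12.51-fold.

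**Figure D4:**
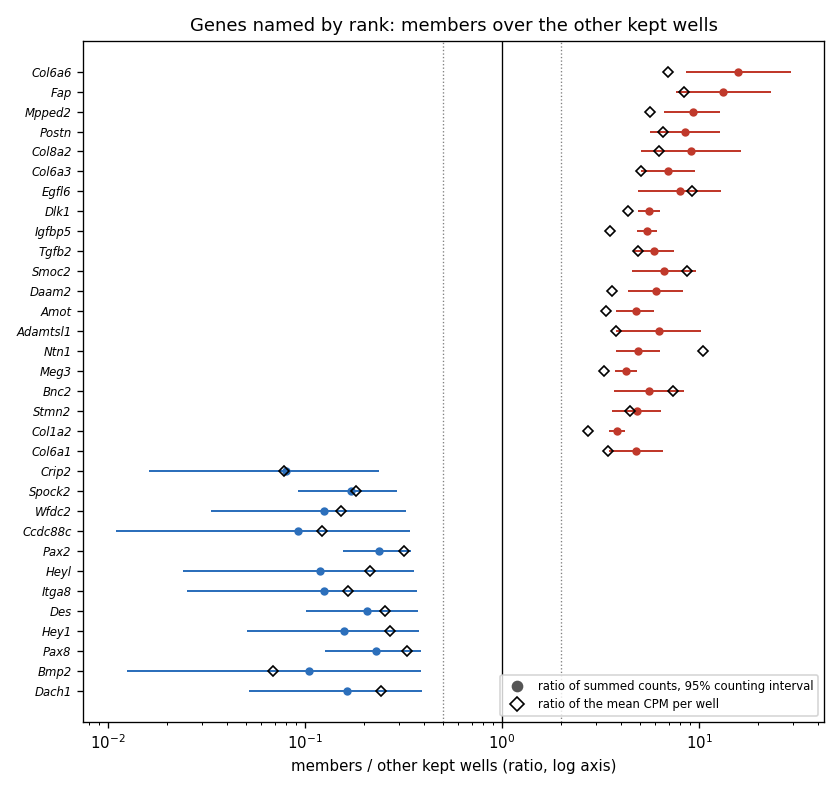
For each of the 20 higher and 12 lower genes, the circle gives the ratio of summed counts per 1000000 in members over the other kept wells on a log axis, the line its 95% counting interval, and the diamond the ratio of the mean CPM per well. Genes were chosen to differ at least 2-fold in the same direction by both ratios. Circles and diamonds therefore lie on the same side of equality by selection. The diamonds of Ntn1 and Col6a6 are among those outside the interval.

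Most members, 51 of 63 (81.0%, 69.1% to 89.8%), had Foxd1 at 2 counts per 10000 or more, and 12 did not. Foxd1-high and Foxd1-low members had median depths of 5223 and 4307 counts, and the deepest Foxd1-low well held 39.3% of that class's counts, so the level in the other 11 Foxd1-low wells is given in parentheses. Of 4546 features, 602 (13.2%) were at least 2-fold higher in Foxd1-high members and 238 (5.24%) lower, with a median log2 ratio of 0.14. Wt1 was at 928 and 539 CPM (888), Ntn1 at 264 and 221 (363), Crabp1 at 2078 and 2502 (3798), and Ebf3 at 796 and 1728 (1175). A pair of those 11 wells held most of their Crabp1 and Ebf3 counts. They had 80.8 and 50.3 counts of Crabp1 and 23.1 and 21.1 of Ebf3. Cxcl12 was at 753 and 221 CPM (303). Aldh1a2 was at 1160 and 392.2 CPM (646), with a log2 ratio of 1.56 that was 0.84 without that well.

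Of 23 mitosis genes, 15 were higher in Foxd1-high members and none lower, with a median log2 ratio of 1.18. Without the deepest Foxd1-low well 6 were higher and the median was 0.66. Of all 4249 features in that setting, 635 (14.9%) were at least 2-fold higher. Mki67 was at 426 and 172 CPM, and at 262 in the remaining 11 Foxd1-low wells. Ube2c, a ubiquitin-conjugating enzyme of mitosis, was at 413 and 98.1 CPM (141), and Ccnb2, a mitotic cyclin, at 182 and 12.3 (20.2, from 1 count). Pclaf, a partner of the replication clamp, was 4.23-fold higher, with a log2 ratio of 2.08 that was 1.68 without that well. The number of mitosis genes past 2-fold thus fell from 15 to 6 with 1 well left out.

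Among the genes that led in the other direction, 3 changed most without the deepest Foxd1-low well, while Actc1 rested on another well described below. Mpped2, Rasl11b and the secreted growth factor Ptn had log2 ratios of −3.49, −2.94 and −2.23 that were −0.29, −0.76 and −0.57 without the deepest well. Igfbp5, 6.89-fold lower in Foxd1-high members, was at 628 and 4323 CPM (3636). Of its 352.7 Foxd1-low counts, the deepest well held 172.6 (48.9%) and a well of 6732 counts held 131.1. The level in parentheses thus rested mostly on the well of 6732 counts. Smooth muscle actin (Acta2), 8.59-fold lower, had 54.1% in 1 well and most of the rest in another.

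The Foxd1-low members were unlike each other. The deepest, with 32058 counts, had 82.8 counts of Ebf3 and 16 of Crabp1 but none of Foxd1, Ntn1, Wt1, Aldh1a2 or Pax2. It held 29.1 counts of Scx, the tendon factor scleraxis, 31.1 of elastin (Eln), 35.2 of the neuropeptide precursor Penk, 23.1 of Tac2, 14 of Hand2 and 173 of Igfbp5. Another, with 5262 counts, held 117 counts of cardiac actin (Actc1), 25.1 of the muscle factor myogenin (Myog) and 11 of Myod1, with 5 of Crabp1 and none of Wt1. This well gave 98.3% of the Actc1 counts in Foxd1-low members, so the 36.7-fold lower Actc1 of Foxd1-high members rested on it. A pair of wells with 8400 and 6732 counts had the most Crabp1 of this class, 80.8 and 50.3 counts, with Pax1 at 17 and 1 and Pax9 at 3 and 5, factors known from the sclerotome. The other 8 had 0 to 11 counts of Wt1 and no Pax1, and 1 of them (4589 counts) held 8 counts of Lhx9, a factor of coelomic and gonadal cells. Wt1 was found in 46 of the 51 Foxd1-high and 8 of the 12 Foxd1-low members, and 2 members had neither Wt1 nor Foxd1. A pair of Foxd1-high wells also held Pax1, at 9 and 2 counts, with 43.2 and 18 of Crabp1, 4 and 3 of Foxd1 and no Wt1.

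**Figure D5:**
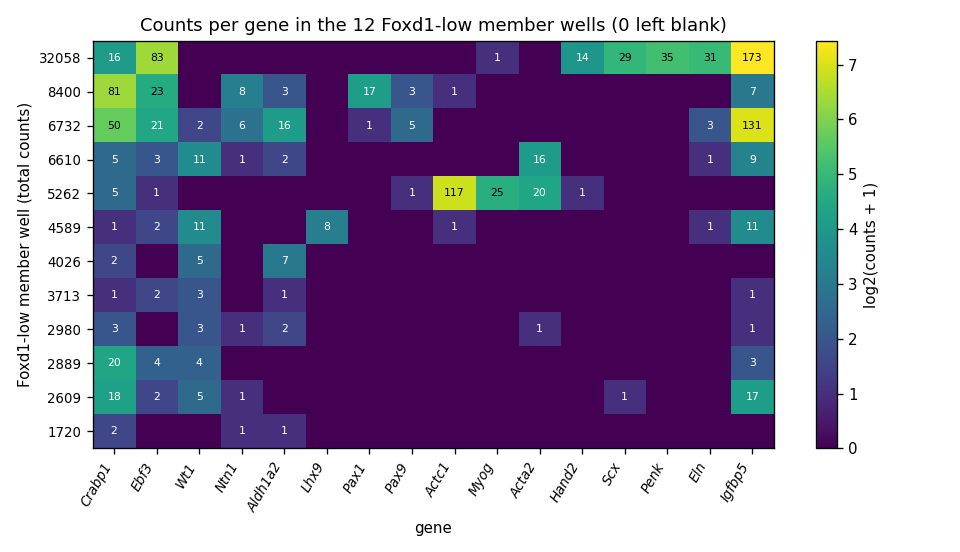
Rows are the 12 Foxd1-low member wells, labelled by total counts, and columns are genes; color gives log2(counts + 1), and printed values are counts rounded to whole numbers. The well of 32058 counts holds Hand2, Scx, Penk and Eln, the well of 5262 counts holds Actc1 and Myog, and most others hold Wt1.

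The genes named above for the classes were also read in Foxd1-high members alone. Of the matrix genes 26 were then higher and 4 lower than in nephron progenitor wells, and all 8 later stroma genes that could be compared were higher. Of all 9140 features in that comparison, 786 (8.6%) were at least 2-fold higher and 828 (9.06%) at least 2-fold lower. Igfbp5 fell from a log2 ratio of 2.45 to 1.28 over the other wells. Of 4 skeletal muscle genes, 3 were higher than in nephron progenitor wells over all members, and none over Foxd1-high members.

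Applied to the cultured plates, the same rule found 5 of 200 kept wells (2.5%, 0.817% to 5.74%) after E12.5 culture and 12 of 300 (4.0%, 2.08% to 6.88%) after E11.5 culture, shares below that of the uncultured plate. Both cultured plates differ from the uncultured plate in culture and the added reporter allele, and the E12.5 plate also in embryonic stage. Each condition is also a separate plate, and these differences cannot be told apart. In the 12 and 5 wells, given in that order from the E11.5 and E12.5 cultures, Crabp1 was at 793 and 514 CPM and Ebf3 at 380 and 455. Foxd1 was at 217 and 791 CPM and Wt1 at 163 and 119. Ebf2 had no count in the 12 wells, which allows up to 32.6 CPM, and 2 counts in the 5. Ntn1 had 1 count in each set.

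The added reporter sequences were near 0 in the members of the uncultured plate. The EGFP-IRES-Cre sequence had 0 counts in the 63 wells, which allows up to 7.80 CPM and a share of up to 4.76% of wells with a count, and 6 counts in the nephron progenitor and 1 in the remaining mesenchyme wells. The tdTomato sequence, which this plate's label does not list, had 1 count. The neomycin resistance sequence had 12 counts in 11 members (31.2 CPM).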

How the data were processed

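For each plate the authors deposited a gene-by-well table of expected counts, which by their values are tallies of molecular identifiers adjusted for collisions. Per the submitters' processing notes, STAR 2.6.1a, featureCounts 1.5.2 and the build GRCm38.p5 were used. Whole counts had been assumed in the plan; the deposited values were kept and rounded only for intervals and thinning. Mitochondrial genes, spike-ins, added sequences and counts of unknown well (4.21%) were left out of totals. CPM is summed counts per 1000000, with exact Poisson 95% intervals; ratios carry a Clopper-Pearson interval on how the counts split and need 20 counts over both groups. Wells are not replicates, so no test was made. A floor of 3 counts applies at 0. The plates share their 384 well names, which mark positions and no shared cells. Thinning drew 1000 counts per well. No doublet caller was run on sorted plates; wells over 3 times the median were left out as an alternative. Python 3.11.15, numpy 2.4.6, pandas 2.3.3 and scipy 1.17.1 were used, and the ratios were tested on simulated data. The members and gene lists were chosen with earlier results of these data known. Genes were named from the lists, by highest CPM or largest ratio, and by rank: at least 50 counts, found in 20% of wells and 2-fold different by sums and per-well means, then the near limit of the interval (20 higher and 12 lower against the other wells, 6 each way elsewhere). Genes of the individual Foxd1-low wells were chosen after their values were seen. Some genes that the naming rule picks are not reported here.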

Additional observations from a re-analysis of the deposited data

How the results depend on the processing

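No paired analysis was possible because each condition is 1 plate without replicates. The number of members was 79 with a threshold of 6 per 10000 for Crabp1, Ebf2 and Ebf3, 48 with 12, and 83 after thinning every well to 1000 counts, of which 45 were among the 63. It was 71 without the limit on Six2, Eya1 and Uncx and 54 with at least 3000 counts. In a well thinned to 1000 counts, 1 count of Crabp1, Ebf2 or Ebf3 reaches the threshold, and 1 of Six2, Eya1 or Uncx excludes the well. Thinning thus also made the rule coarser. With at least 100 counts per feature, 286 features were higher and 397 lower against the other wells, 167 and 173 against nephron progenitor wells, 39 and 33 against remaining mesenchyme, and 32 and 15 between Foxd1-high and Foxd1-low members. With any count the same pairs were 2970 and 9129, 3839 and 5311, 2701 and 4495, and 5427 and 2601; such counts rest on features with few molecules. In these comparisons 41, 82, 44 and 14 of the named genes were followed where an alternative gave a ratio. Without the deep wells over 3 times the median, 12, 11, 3 and 4 of them left the counting interval of their ratio, and with the mean of the per-well CPM 15, 10, 2 and 4. In Foxd1-high members alone 10, 9 and 5 did in the first 3 comparisons. None of those followed changed direction except Actc1, which in Foxd1-high over Foxd1-low members went from a log2 ratio of −5.20 to 1.07 with the threshold of 12, where the muscle well is no member. Depth limits the reading of Ebf2 and Ntn1, whose median member had 0 and 1.85 counts per 10000. The alternatives without the deepest wells, without wells reaching another cell type's markers and in Foxd1-high members alone were chosen after seeing the data.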
